A study of Mus musculus with 12 samples.

Results

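The genes of the insulin-like growth factor (IGF) system were examined in the forebrain of juvenile and adult Shank3-mutant mice and their wild-type counterparts. The 10 genes were taken by symbol from the table of 19268 genes: the ligands Igf1 and Igf2, the receptors Igf1r and Igf2r, and the binding proteins Igfbp2, Igfbp3, Igfbp4, Igfbp5, Igfbp6 and Igfbp7. RNA came from forebrain that the study describes as lacking the olfactory bulb. The donors were male C57BL/6J mice, juvenile at postnatal day 25 (P25) or adult at postnatal day 60 (P60). Knock-out (KO) mice were homozygous for a constitutive Shank3 deletion that removes a stretch of coding exons, and wild-type (WT) mice did not carry it. Shank3 is a postsynaptic scaffold gene of glutamatergic synapses. There were 3 mice, with 1 library each, in each of the groups P25-WT, P25-KO, P60-WT and P60-KO, and the mutants came from 1 line. All 10 genes passed the filter on low values and none was listed at 0 in any library.

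IGF-1 and IGF-2 are small secreted hormones related to insulin that promote growth, survival and myelination. Both signal through the tyrosine kinase IGF-1 receptor, while the IGF-2 receptor takes IGF-2 up for degradation in lysosomes and also carries lysosomal enzymes that bear mannose 6-phosphate. The IGF-binding proteins hold the ligands in the extracellular fluid and thereby limit or prolong their access to the receptor. In the adult brain, Igf2 is known to be expressed mainly in the meninges and the choroid plexus, Igf1 in some neurons and glia, and the binding proteins in blood vessels, astrocytes, neurons and meninges.

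The values are normalized counts, that is, transcript estimates that the authors scaled to make the 12 libraries comparable. Library sums lay between 30568259 and 32348554 normalized counts, and Pearson correlations across genes between libraries of 1 group were from 0.982 to 0.990. The targeted gene Shank3 (ENSMUSG00000022623) was lower in every KO library than in every WT library of its age, and its KO level was 47.95% (P25) and 50.2% (P60) of that in WT mice. The excitatory neuron transporter gene Slc17a7 had a mean of 34459 normalized counts. The cerebellar granule cell genes Gabra6 and Cbln3 had means of 0.72 and 15.35 at P25 and 49.1 and 137.3 at P60. The hindbrain gene Hoxb3 had 10.87 and 5.47. Markers from outside the forebrain were thus not absent, and some were higher at P60. The summed olfactory bulb markers ranged from 427.3 to 1033 normalized counts, both in P60-WT libraries, and what they say of the dissection was not tested. The summed hindbrain and cerebellum markers ranged from 147.5 in P25-KO replicate 3 to 1856 in P60-WT replicate 2. Of 6 tested over both genotypes none was a DEG between the ages (0 markers, limma, and 2 at an unadjusted p under 0.05), where 37.6% of all genes tested were. With 1 library left out between 0 and 2 were DEGs. Their median log2 fold change was 1.37. In KO mice 2 of 6 were DEGs, both higher at P60, where 20.7% of all genes tested were DEGs. The part of these markers in the age results was not tested. In whole tissue, fewer cells of a type and less RNA per cell cannot be told apart.

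To compare levels between genes, normalized counts were divided by the length of each gene's exons in kilobases. On this scale Igfbp5, which encodes the binding protein long known from developing forebrain and bone, had the highest level in all 4 groups, with 876.1 ± 45.8 normalized counts per kilobase in P25-WT and 902.2 ± 49.0 in P60-WT mice (SD, n = 3). Igfbp2 came next at P25 with 792.1 ± 95.6 in P25-WT mice, and its lowest to highest range overlapped that of Igfbp5. Igf2 was in place 3 at P25, with 632.7 ± 17.3 in P25-WT mice, where it did not overlap Igfbp2, as it did in P25-KO mice, and in place 6 at P60, with 354.7 ± 67.0 in P60-WT mice. The means of Igfbp6, Igfbp7 and Igfbp4 lay between 508.2 and 524.5 in P25-WT mice, their ranges overlapped from 1 to the next, and that of Igfbp6 also overlapped the range of Igf2. In P60-WT mice these 3 genes, at 450.3, 410.1 and 388.7, stood above Igf2, and from Igfbp7 to Igf2 the ranges again overlapped. Igf2r, Igfbp3 and Igf1r formed a lower set, with 163.6, 146.2 and 127.1 in P25-WT mice and overlapping ranges. Igf1 was lowest in all 4 groups without overlap with its neighbour, at 32.4 ± 4.37 in P25-WT and 27.0 ± 5.11 in P60-WT mice (SD, n = 3). The order among the higher genes rested on the length used. With the mean length of the protein-coding transcripts, Igf2 came first at P25, with 1546 ± 42.3 in P25-WT mice, Igfbp4 came first at P60, with 1017 ± 59.5 in P60-WT mice, and Igf1 had the lowest mean but overlapped its neighbours in P25-WT and P60-KO mice. The study's methods say that counts were normalized to gene size, and if values had been divided by length before deposit, the order would differ.

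**Figure D1:**
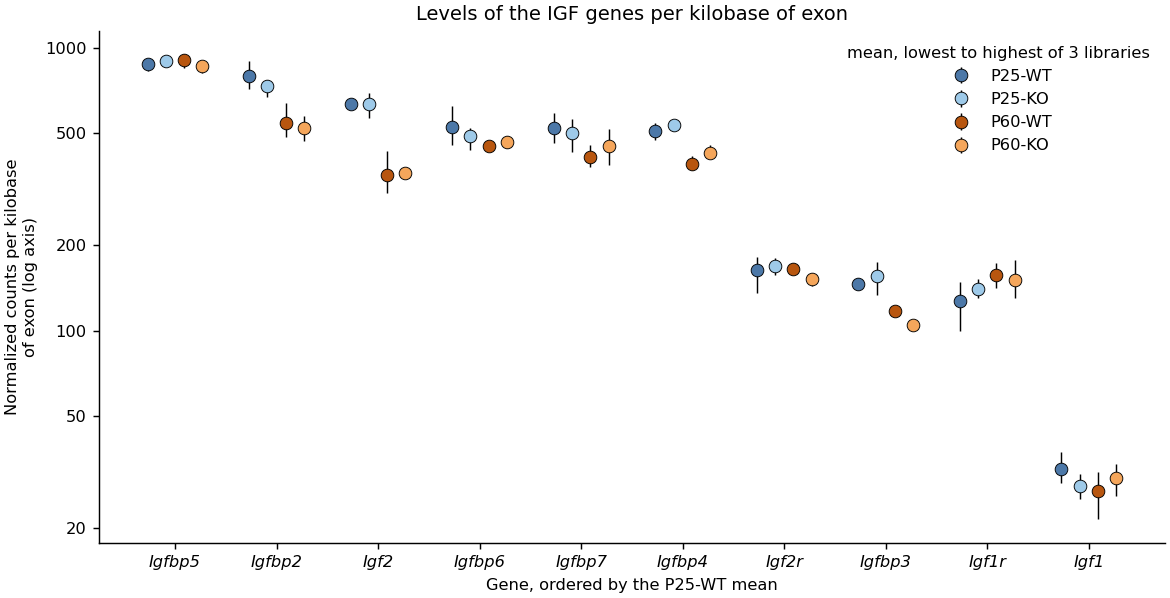
Normalized counts per kilobase of exon (vertical log axis) of the 10 IGF genes, ordered by their P25-WT mean. Points are group means and lines run from the lowest to the highest of 3 libraries. Igfbp5 stood between 863.5 and 902.2 in the 4 groups and Igf1 between 27.0 and 32.4.

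The comparison of P60 with P25 mice asked how the IGF genes change between the juvenile and the adult forebrain. Over both genotypes, with genotype as a term, 5 of the 10 genes were differentially expressed genes (DEGs), namely Igf2, Igfbp2, Igfbp3, Igfbp4 and Igfbp7, and all 5 were lower at P60. The largest difference was that of Igf2, which at P60 had 56.4% of its P25 level. A DEG is a gene with an adjusted p-value under 0.05 (limma with Benjamini-Hochberg adjustment over all genes tested). Of the 17594 genes tested in this comparison, 37.6% were DEGs and 19.3% were DEGs lower at P60. The median log2 fold change of the 10 genes was -0.20, and that of all genes tested was 0.00. The balance of directions over all genes rested on the scaling, with 3397 of 6616 DEGs lower at P60 as deposited and 2730 of 6768 after scaling all libraries to 1 total. Every P60 library lay below every P25 library for Igf2, Igfbp2, Igfbp3 and Igfbp4, as was so for 10.8% of all genes tested.

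**Figure D2:**
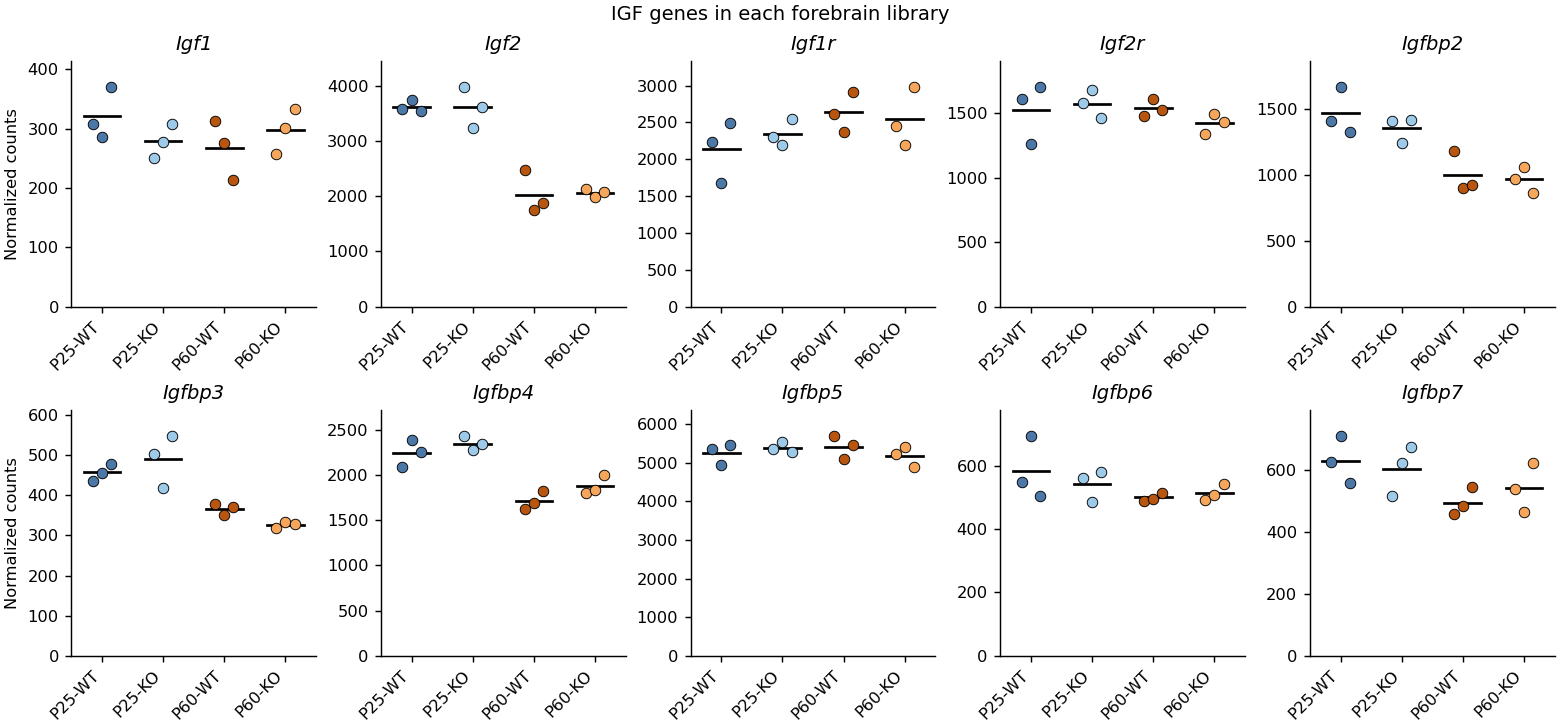
Normalized counts (vertical axes, starting at 0) of the 10 IGF genes in each of the 12 libraries, with bars at the group means of 3 libraries. Igf2, Igfbp2, Igfbp3 and Igfbp4 were lower in every P60 library than in every P25 library, while WT and KO points overlapped at each age except for Igfbp3 at P60.

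Among the ligands, Igf2 (ENSMUSG00000048583, GRCm38 chromosome 7, 142650766 to 142666816, minus strand, 8 exon blocks), the imprinted fetal growth factor that is expressed from the paternal allele in most tissues, had 3584, 3734 and 3546 normalized counts in P25-WT replicates 1 to 3. The P25-KO libraries had 3970, 3236 and 3620. At P60 it had 2468, 1754 and 1868 in WT and 2135, 1980 and 2067 in KO mice. The highest P60 library, P60-WT replicate 1, was still below the lowest P25 library, P25-KO replicate 2. The level was 3615 ± 240.7 at P25 and 2045 ± 248.2 at P60 (SD, n = 6), a log2 fold change of -0.83 ± 0.07 (SE) with a 95% interval from -0.98 to -0.67 and an adjusted p-value of 2.37e-06 (limma). Leaving out any 1 library gave log2 fold changes from -0.89 to -0.78. Reads of Igf2 are uncertain in part, since 63.1% of its 31-base words also occur in transcripts of Gm49394, a protein-coding gene model on the same strand that covers 3596 of its exon bases and was not analysed here.

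Igf1 (ENSMUSG00000020053, chromosome 10, 87858265 to 87937042, plus strand), the growth hormone-responsive ligand, had between 250.9 and 369.5 normalized counts in the 6 P25 libraries and between 212.7 and 333.8 in the 6 P60 libraries. The ages overlapped, and the log2 fold change was -0.09 with a 95% interval from -0.34 to 0.15, so that a change of the size seen for Igf2 lay outside the interval of Igf1.

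Of the receptors, Igf1r (ENSMUSG00000005533, chromosome 7, 67952827 to 68233668, plus strand), the signaling receptor of both ligands, had 2242 ± 313.3 normalized counts at P25 and 2590 ± 306.8 at P60 (SD, n = 6), with overlapping ages. Its log2 fold change of 0.21 ± 0.10 (SE) had an unadjusted p of 0.0482 and an adjusted p of 0.104 (limma). The lowest value came from P25-WT replicate 2, with 1673, and without this library the log2 fold change was 0.13. It was a DEG without P60-KO replicate 2, at 0.27 with an adjusted p of 0.0437, and with the replicate block, with an adjusted p of 0.0135 (limma). Igf2r (ENSMUSG00000023830, chromosome 17, 12682406 to 12769664, minus strand), the uptake and lysosomal sorting receptor, had 1548 ± 164.1 at P25 and 1479 ± 89.8 at P60 (SD, n = 6). Its log2 fold change was -0.06 with a 95% interval from -0.21 to 0.09, and the ages overlapped. Without P25-WT replicate 2, which held its lowest value of 1260, it was a DEG at -0.13, with an adjusted p of 0.0470 (limma). The antisense gene Airn, which overlaps Igf2r on the opposite strand but shares none of its exon bases (0), had 21.9 ± 8.21 at P25 and 31.6 ± 8.06 at P60 (SD, n = 6) and was not a DEG.

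The binding proteins fell into 4 that were lower at P60 and 2 that were not called. Igfbp2 (ENSMUSG00000039323, chromosome 1, 72824503 to 72852474, plus strand), a binding protein with a preference for IGF-2 and a known product of choroid plexus and meninges, had 1407, 1661 and 1321 normalized counts in P25-WT and 1403, 1237 and 1416 in P25-KO mice. At P60 it had 1178, 897.0 and 918.5 in WT and 966.9, 1060 and 862.7 in KO mice. All P60 libraries were below all P25 libraries, with P60-WT replicate 1 again the highest of its age. The log2 fold change was -0.52 ± 0.08 (SE), or 69.6% of the P25 level, with an adjusted p-value of 0.000229 (limma). Igfbp5 (ENSMUSG00000026185, 72857932 to 72874884, minus strand) lies beside Igfbp2 on chromosome 1 and did not move with it. It had between 4953 and 5539 normalized counts in the P25 libraries and between 4900 and 5686 in the P60 libraries, and its log2 fold change was -0.01 with a 95% interval from -0.10 to 0.09. The direction of this small value turned with the scaling, to 0.0346 after scaling all libraries to 1 total.

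Igfbp3 (ENSMUSG00000020427, chromosome 11, 7206086 to 7213923, minus strand), the main carrier of IGFs in serum, had 436.8, 456.9 and 479.1 normalized counts in P25-WT and 503.5, 418.3 and 546.9 in P25-KO mice. At P60 it had 378.2, 352.0 and 370.7 in WT and 318.1, 332.7 and 329.0 in KO mice, with no P60 library reaching the lowest at P25. The log2 fold change was -0.45 ± 0.08 (SE), with an adjusted p-value of 0.000472 (limma). Igfbp4 (ENSMUSG00000017493, chromosome 11, 99041244 to 99054392, plus strand), which inhibits IGF action until it is cut by the protease encoded by Pappa, had 2088, 2387 and 2259 in P25-WT and 2430, 2279 and 2347 in P25-KO mice. At P60 it had 1628, 1696 and 1826 in WT and 1806, 1836 and 2000 in KO mice, again without overlap. Its log2 fold change was -0.35 ± 0.05 (SE), with an adjusted p-value of 9.39e-05 (limma). Of its 31-base words 6.18% also occur in other genes.

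Igfbp7 (ENSMUSG00000036256, chromosome 5, 77349240 to 77408041, minus strand), a low-affinity member found in vessel walls, had 617.9 ± 71.8 normalized counts at P25 and 519.1 ± 63.5 at P60 (SD, n = 6), and here the ages overlapped. Its log2 fold change of -0.25 ± 0.09 (SE) had an adjusted p-value of 0.0461 (limma), close to the threshold, and the call was lost in 9 of the 12 fits that each left out 1 library, that is, in all but those without P25-WT replicate 3, P25-KO replicate 1 or P60-KO replicate 3. Igfbp7 shares 85 exon bases with Polr2b on the opposite strand, and 4.57% of its 31-base words with other genes, so a small part of its reads is uncertain. Igfbp6 (ENSMUSG00000023046, chromosome 15, 102144362 to 102149511, plus strand), which prefers IGF-2, had 563.2 ± 73.3 at P25 and 507.6 ± 19.8 at P60 (SD, n = 6), with overlapping ages and an adjusted p-value of 0.174 (limma). Its highest value was 693.7 in P25-WT replicate 2.

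The promoters of the genes that were lower at P60 without overlap are shown because these genes moved in the same direction. Sequences are from RefSeq (GRCm38.p6), 250 bases upstream of a listed start site and 5′ to 3′ on the gene's strand. For Igf2, which has 4 listed starts, the windows of starts 3 and 4 are given, the ones that hold a GC box. Capitals mark a GC box (GGGCGG on either strand) or a TATA box (TATAAA on either strand). The positions are chr7:142658805-142659054 (minus) for Igf2 start 3, chr7:142657497-142657746 (minus) for Igf2 start 4, chr1:72824230-72824479 (plus) for Igfbp2, chr11:7213924-7214173 (minus) for Igfbp3 and chr11:99040994-99041243 (plus) for Igfbp4.
Igf2 start 3: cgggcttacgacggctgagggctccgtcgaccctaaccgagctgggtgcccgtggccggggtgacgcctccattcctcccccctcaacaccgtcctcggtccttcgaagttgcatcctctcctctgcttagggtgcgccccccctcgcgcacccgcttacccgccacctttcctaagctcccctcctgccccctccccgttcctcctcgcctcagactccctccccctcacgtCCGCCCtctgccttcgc
Igf2 start 4: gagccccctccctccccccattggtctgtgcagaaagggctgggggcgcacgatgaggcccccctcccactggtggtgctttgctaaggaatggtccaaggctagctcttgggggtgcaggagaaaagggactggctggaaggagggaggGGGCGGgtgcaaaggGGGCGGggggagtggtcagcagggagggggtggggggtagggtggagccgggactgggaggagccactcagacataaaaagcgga
Igfbp2: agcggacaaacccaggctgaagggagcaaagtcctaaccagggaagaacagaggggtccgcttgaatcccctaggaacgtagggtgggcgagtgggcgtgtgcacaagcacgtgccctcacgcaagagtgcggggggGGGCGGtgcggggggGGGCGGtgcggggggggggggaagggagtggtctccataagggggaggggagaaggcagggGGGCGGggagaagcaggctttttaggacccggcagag
Igfbp3: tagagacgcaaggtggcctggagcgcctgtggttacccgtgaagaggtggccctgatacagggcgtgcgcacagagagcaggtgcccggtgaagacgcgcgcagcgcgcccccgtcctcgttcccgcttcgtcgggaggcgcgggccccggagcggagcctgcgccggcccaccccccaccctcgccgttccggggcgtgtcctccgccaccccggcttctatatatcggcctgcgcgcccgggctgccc
Igfbp4: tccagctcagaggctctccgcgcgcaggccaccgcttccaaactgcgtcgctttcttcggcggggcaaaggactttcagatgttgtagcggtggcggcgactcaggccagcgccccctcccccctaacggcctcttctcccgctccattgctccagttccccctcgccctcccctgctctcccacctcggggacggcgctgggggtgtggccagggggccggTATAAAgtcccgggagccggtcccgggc
The GC box, the element bound by Sp1-type factors, was found 3 times in the Igfbp2 window shown and not in the window of the other listed Igfbp2 start (0 matches). It was found once in Igf2 start 3, 2 times in Igf2 start 4 and not in Igf2 starts 1 and 2 (0 matches). These Igf2 windows were picked for the word, which occurs in 32.7% of 32851 mouse promoter windows of the same length, so nothing is read from its presence. The TATA box was found in the Igfbp4 window and in 12.4% of all windows. Neither word occurs in the Igfbp3 window, which says only that these letters are not in it. The G+C content was 67.2% and 56.4% in the Igfbp2 windows, 73.2% for Igfbp3, 69.2% for Igfbp4 and, for Igf2 starts 1 to 4, 50.8%, 47.6%, 68.8% and 66.0%, with a median of 52.4% over all windows. Neither word was common to the 4 genes, and neither set them apart from IGF genes that were not called. The windows of Igf1r and Igf2r held 2 and 3 GC boxes at a G+C content of 77.6% and 69.2%, and that of Igfbp5 held neither word at 58.8%. The window of Igfbp6, also not called, held 1 TATA box at 49.6%. That of Igfbp7, which was called but overlapped between the ages, held 4 GC boxes at 74.0%.

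Within WT mice, 3 of the 10 genes were DEGs between the ages, namely Igf2, Igfbp2 and Igfbp4, and all were lower at P60, where 8.65% of the 17581 genes tested were DEGs and 4.99% were DEGs lower at P60. The log2 fold changes were -0.85 ± 0.12 (SE) for Igf2, -0.56 ± 0.13 for Igfbp2 and -0.39 ± 0.09 for Igfbp4, with adjusted p-values of 0.00800, 0.0354 and 0.0302 (limma). Igfbp3 and Igfbp7 were lower in every P60-WT library than in every P25-WT library, as 18.4% of the genes tested were, but had adjusted p-values of 0.0809 and 0.104 (limma). The calls, more than the differences, rested on single libraries in WT mice. They were also lost without the intensity trend (0 of the 10 genes called), and the number of all DEGs ran from 122 to 2403 when 1 library was left out. With 1 library left out the log2 fold changes ranged from -0.9997 to -0.75 for Igf2, -0.68 to -0.46 for Igfbp2 and -0.44 to -0.34 for Igfbp4. Without P60-WT replicate 3 none of the 10 genes was a DEG (0 genes, with an adjusted p of 0.0562 for Igf2), without P25-WT replicate 1 or P60-WT replicate 2 Igf2 alone was, and without P60-WT replicate 1 Igf2 and Igfbp2 were.

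Within KO mice, Igf2, Igfbp2, Igfbp3 and Igfbp4 were DEGs and all 4 were lower at P60, where 20.7% of the 17596 genes tested were DEGs and 11.3% were DEGs lower at P60. Igf2 had a log2 fold change of -0.80 ± 0.08 (SE), with an adjusted p-value of 0.000249 (limma). Those of Igfbp2, Igfbp3 and Igfbp4 were -0.49 ± 0.09, -0.57 ± 0.11 and -0.32 ± 0.06 (SE), with adjusted p-values from 0.00515 to 0.00652 (limma). All 4 were lower in every P60-KO library than in every P25-KO library, as were 20.5% of the genes tested. The count was 4 without any 1 of the 6 libraries. Igfbp7 had a log2 fold change of -0.16 with a 95% interval from -0.44 to 0.13 in KO mice. That more genes were called in KO than in WT mice is not a difference between the genotypes. The difference itself was tested as an interaction, which called none of them (0 genes).

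**Figure D3:**
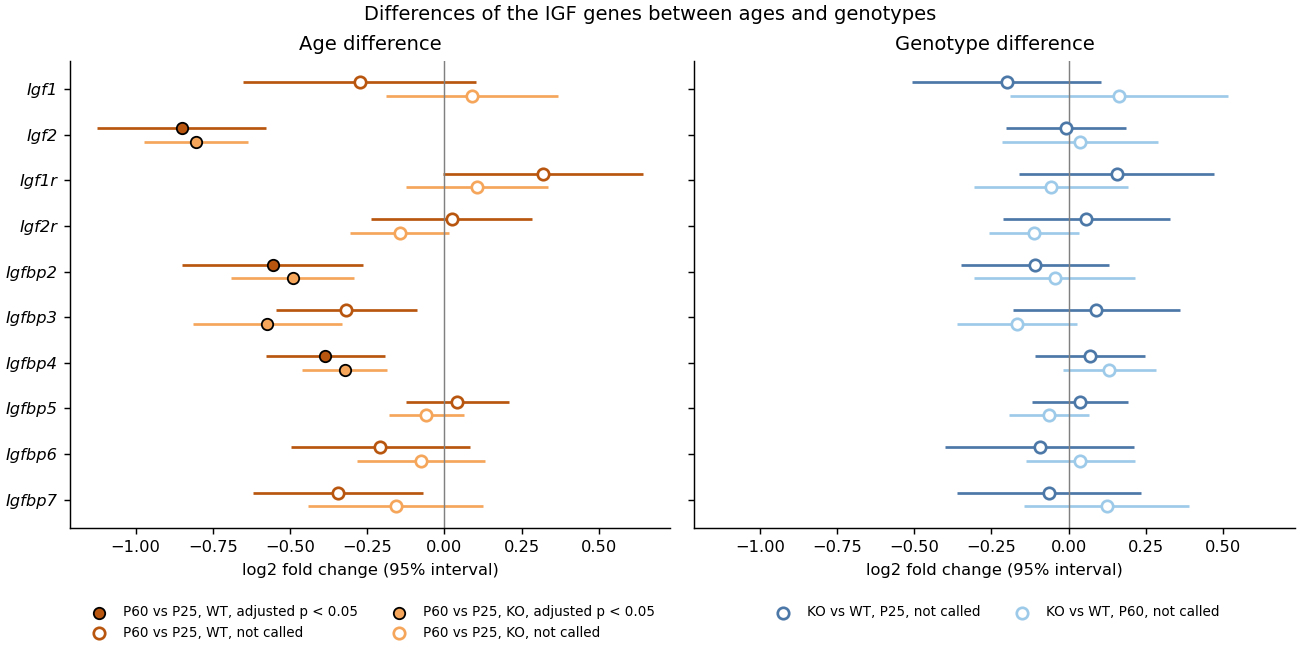
Log2 fold changes of the 10 IGF genes with 95% intervals (horizontal axes), for P60 against P25 in WT and KO mice on the left and KO against WT at P25 and P60 on the right. Filled points have an adjusted p under 0.05. Igf2 stood at -0.85 in WT and -0.80 in KO mice, and all genotype differences lay between -0.20 and 0.16.

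The comparison of KO with WT mice asked which of these genes respond to the Shank3 deletion. At P25 none of the 10 genes was a DEG (0 genes, limma), where 0.00571% of the 17515 genes tested were, that is, Shank3 itself. With DESeq2 at the same threshold of adjusted p, the study reported DEGs beyond Shank3 at both ages, so the limma fits called fewer genes. Even the call of Shank3 at P25 was lost without P25-KO replicate 1 or 2, with the replicate block and without the intensity trend (0 genes called). Without P25-WT replicate 1, 8 genes were called. None of the 10 had an unadjusted p under 0.05, as 1.36% of all genes did. With no true differences a share of 0.05 would be awaited on average, so p-values ran high over the whole table and little is read from this absence. The shares at P60, over both ages and in the interaction, given below, were also under 0.05. Igf2 had 3621 ± 99.1 normalized counts in P25-WT and 3609 ± 367.3 in P25-KO mice (SD, n = 3), a log2 fold change of -0.01 with a 95% interval from -0.20 to 0.19. The value farthest from 0 was that of Igf1, with 321.2 ± 43.3 in P25-WT and 278.8 ± 28.4 in P25-KO mice (SD, n = 3) and a log2 fold change of -0.20 with a 95% interval from -0.51 to 0.11. With 1 library left out it ranged from -0.28 to -0.10, the latter without P25-WT replicate 3, where Igf1r was farther from 0 at 0.28. Igf1r had a log2 fold change of 0.16 that went to -0.01 without P25-WT replicate 2.

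At P60 none of the 10 genes was a DEG either (0 genes, limma), where 0.00568% of the 17610 genes tested were, that is, Shank3 itself. Its call was lost without the intensity trend (0 genes called). With 1 library left out between 1 and 3 genes were called, 3 without P60-KO replicate 1. None of the 10 had an unadjusted p under 0.05, as 2.50% of all genes did. Igfbp3 was the 1 gene whose genotypes did not overlap, with 326.6 ± 7.56 normalized counts in P60-KO and 366.9 ± 13.5 in P60-WT mice (SD, n = 3). Such a gap with KO below WT was seen for 3.63% of all genes tested. The log2 fold change of Igfbp3 was -0.17 with a 95% interval from -0.36 to 0.03, an unadjusted p of 0.0823 and an adjusted p of 0.9995 (limma). Igfbp4 was higher in the KO mean, with 1881 ± 104.5 in P60-KO and 1716 ± 100.5 in P60-WT mice (SD, n = 3), but P60-WT replicate 3 was above P60-KO replicate 1. Igf2 had 2061 ± 77.9 in P60-KO and 2030 ± 383.7 in P60-WT mice (SD, n = 3), and its log2 fold change of 0.04 had a 95% interval from -0.22 to 0.29.

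Over both ages, with age as a term, none of the 10 genes was a DEG between KO and WT mice (0 genes, limma), where 0.00568% of the 17594 genes tested were. None had an unadjusted p under 0.05, as 2.05% of all genes did. The smallest was 0.0578 for Igfbp4, with a log2 fold change of 0.10 and a 95% interval from -0.00 to 0.21. For Igf2 the 95% interval ran from -0.14 to 0.17, for Igf1 from -0.26 to 0.23 and for Igf1r from -0.16 to 0.26. The interaction of genotype and age called none of the 10 genes (0 genes, limma, 0% of 17594 genes tested), and none had an unadjusted p under 0.05, as 1.64% of all genes did. The smallest unadjusted p in it was 0.0966 for Igfbp3, whose interaction was -0.26 on the log2 scale, with a 95% interval from -0.57 to 0.05. For Igf1 the age difference was -0.27 in WT and 0.09 in KO mice, and its interaction of 0.36 had a 95% interval from -0.11 to 0.83 and an unadjusted p of 0.118. With 1 library left out these values of Igf1 ranged from -0.40 to -0.12 in WT mice, from 0.0032 to 0.19 in KO mice and from 0.21 to 0.49 for the interaction, lowest in size without P60-WT replicate 3, P60-KO replicate 3 and P60-WT replicate 3. For Igf2 the interaction was 0.05, with a 95% interval from -0.28 to 0.38.

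Markers of other cell types are given beside these results, and their part in the IGF results was not tested. The counts stand against the 37.6% of all genes that were DEGs between the ages over both genotypes, and shares at or under it do not set a list apart. Of 15 markers of meningeal and perivascular fibroblasts, 3 were lower and 2 higher at P60, that is, 33.3% were DEGs. The lower ones were the fibrillar collagens Col1a1, Col1a2 and Col3a1, with log2 fold changes of -1.21, -0.97 and -1.29, and the higher ones were Ogn and Aldh1a2, with 0.34 and 0.23. The matrix proteoglycan genes Dcn and Lum had 0.00 and 0.01. The summed level of the list ranged from 5083 to 5356 in P25-WT, 5187 to 5503 in P25-KO, 3555 to 4538 in P60-WT and 3443 to 3683 in P60-KO mice, and none of the markers was listed at 0 in any library (0 markers). The difference in this sum lay in the 3 collagens, which together had 2794 ± 171.2 at P25 and 1309 ± 183.5 at P60 (SD, n = 6), while the other 12 markers together had 2474 ± 81.7 and 2430 ± 231.3 (SD, n = 6). Of 12 choroid plexus epithelium markers, 6 were higher at P60, among them Prlr with 0.82 and Kl with 0.62, and 1 was lower, Sostdc1, that is, 58.3% were DEGs. With 1 library left out between 4 and 7 of the 12 were called, 4 without P25-KO replicate 2 or P60-KO replicate 3. Within a genotype 2 of the 12 were called in WT and 4 in KO mice, where 8.65% and 20.7% of all genes tested were. The sum of the choroid plexus markers ranged from 21535 to 25482 in the P25 libraries and from 24350 to 32248 in the P60 libraries. The ages overlapped, and the direction was opposite to that of Igf2 and Igfbp2. Most of this sum came from Ttr and Enpp2, with means of 12473 and 11146 over all libraries. Their log2 fold changes were 0.20 and 0.04 and neither was a DEG, so the sum and its correlations reflect mainly these genes.

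P60-WT replicate 1 had the highest value of its age for the meningeal sum, with 4538, for the choroid plexus sum, with 32248, and for Igf2 and Igfbp2. With group means subtracted, the Pearson correlation of Igf2 over the 12 libraries was 0.79 with the meningeal sum and 0.88 with the choroid plexus sum on the log2 scale. Without P60-WT replicate 1 these values were 0.07 and 0.61, so the former rested on that library. Those of Igfbp2 were 0.63 and 0.80, and 0.09 and 0.62 without it, while Igfbp2 had 0.72 with the oligodendrocyte sum and 0.52 with the microglia and macrophage sum. Without this library the age difference of Igf2 was the larger one, -0.89 over both genotypes.

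**Figure D4:**
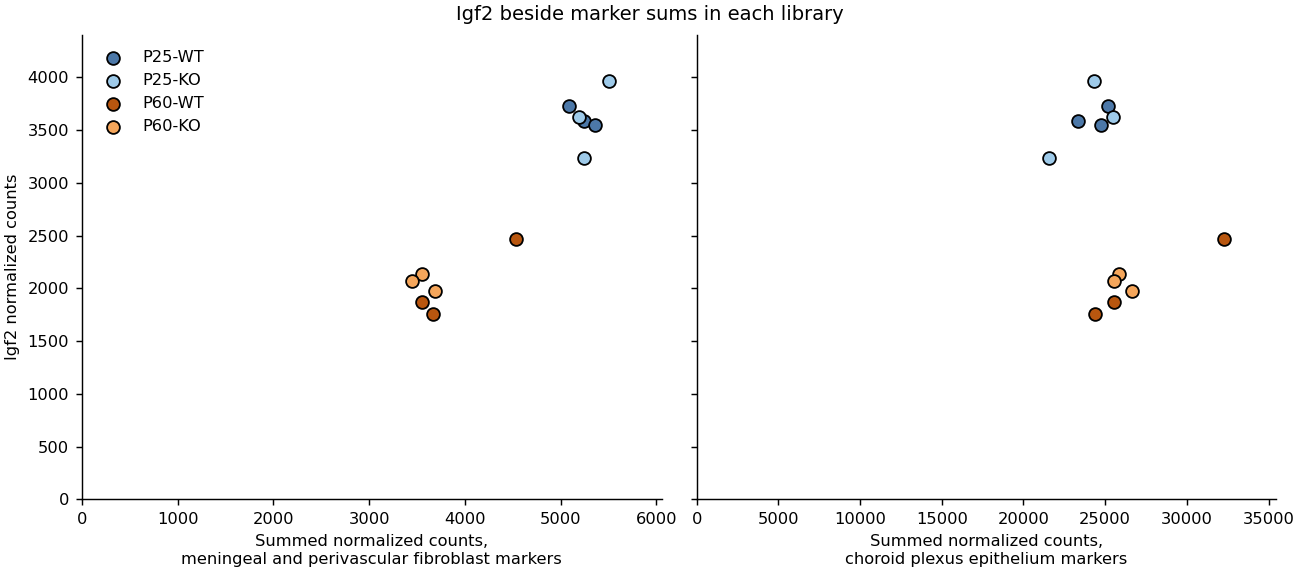
Igf2 (vertical axes, normalized counts) beside the summed normalized counts of meningeal and perivascular fibroblast markers (left) and choroid plexus epithelium markers (right), 1 point per library. Igf2 and the meningeal sum, through its 3 collagens, were both higher at P25, the choroid plexus sum was not, and P60-WT replicate 1 lay at 4538 on the left and 32248 on the right.

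Of 11 pericyte and smooth muscle markers, 3 were lower at P60 and none higher (0 markers), that is, 27.3% were DEGs, namely Rgs5, Kcnj8 and Cspg4, the last of which is also a marker of oligodendrocyte precursors. The contractile genes Acta2, Myh11 and Cnn1 had log2 fold changes of 0.14, 0.20 and 0.25 and were not called. The sum ranged from 5945 to 7057 in P25-WT, 6016 to 6405 in P25-KO, 4711 to 5710 in P60-WT and 4345 to 5500 in P60-KO mice, and no marker was at 0 in any library (0 markers). With group means subtracted, the correlation with this sum over the 12 libraries was 0.80 for Igfbp4 and 0.80 for Igfbp7, from 0.73 to 0.90 and from 0.73 to 0.88 when 1 library was left out, while it was 0.01 for Igfbp3 and -0.64 for Igfbp5. That of Igfbp7 was about as high with lists of other cells, at 0.79 for astrocytes, 0.76 for striatal projection neurons and 0.70 each for endothelium and glutamatergic neurons. Of 12 endothelial markers, 2 were higher and 1 lower, that is, 25% were DEGs, and between 1 and 4 were with 1 library left out. Their sums ran from 11670 to 14266 in the P25 libraries and from 9505 to 13985 in the P60 libraries. Hemoglobin and Alas2 transcripts of blood cells were lower at P60 in 5 of 5, with sums from 20503 to 42983 at P25 and from 5894 to 7305 at P60. Among markers of glia, 8 of 8 for oligodendrocyte precursors and 6 of 10 for astrocytes were lower at P60 and none was higher (0 markers), where 19.3% of all genes were lower. For microglia and macrophages 4 of 12 were lower, that is, 33.3% were DEGs, and between 2 and 5 were with 1 library left out. With group means subtracted, Igf1 had a correlation of 0.50 with the microglia and macrophage sum, which was 0.17 without P60-WT replicate 3, and values of 0.55 with the thalamus sum and 0.49 with the meningeal sum. Of 10 oligodendrocyte markers, 9 were lower at P60, with sums from 392467 to 516867 at P25 and from 195620 to 221901 at P60. Of 10 glutamatergic forebrain neuron markers 5 were lower and 1 higher, with sums from 123375 to 131776 at P25 and from 111390 to 117669 at P60, and of 10 GABA interneuron markers 4 were lower and 2 higher, with sums from 40945 to 43658 and from 39442 to 42051.

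Neighbours of Igf2 and Igf2r in imprinted regions, other imprinted genes such as Meg3, and the proteins that bind Igf2 mRNA were examined as 1 list beside the ligands. Of 17 listed genes 13 were in the table, and over both genotypes 3 were lower and 2 higher at P60, that is, 38.5% of them against 37.6% of all genes tested. Between 3 and 6 of them were DEGs with 1 library left out. H19, the maternally expressed RNA downstream of Igf2, had between 17.99 and 37.27 normalized counts at P25 and between 5.43 and 14.5 at P60. The ages did not overlap, and the log2 fold change was -1.40 ± 0.23 (SE), with an adjusted p-value of 0.000396 (limma). Cdkn1c, a growth-restraining imprinted gene on the same chromosome, had 173.3 at P60 and 258.3 at P25, a log2 fold change of -0.57 (adjusted p of 0.0159, limma), and Slc22a3, beside Igf2r, was the other DEG that was lower. Kcnq1ot1 and Meg3, both imprinted long noncoding RNAs, had log2 fold changes of 0.42 and 0.21 (adjusted p of 0.0119 and 0.0364, limma). The list median was 0.09. The mRNA-binding proteins Igf2bp2 and Igf2bp3 had log2 fold changes of -0.08 and 0.18 and were not DEGs. Igf2os, antisense to Igf2 with 98 shared exon bases, had 10.7 ± 2.99 at P25 and 11.2 ± 1.61 at P60 (SD, n = 6).

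Among 12 tested genes that set IGF availability or belong to the growth hormone axis, 1 was higher and 4 were lower at P60, where 37.6% of all genes were DEGs, and the list median was -0.06. Pappa, the protease that cuts Igfbp4, had 62.1 normalized counts at P60 and 40.8 at P25, a log2 fold change of 0.60 ± 0.15 (SE) with an adjusted p-value of 0.00674 (limma), while its substrate Igfbp4 was lower. Igfbpl1, an IGF-binding protein-like gene, had 70.9 at P60 and 114.4 at P25, a difference of -0.71 ± 0.17 (SE) on the log2 scale (adjusted p-value 0.00536, limma). The endocytic receptor gene Lrp1 had a log2 fold change of -0.27 ± 0.06 (SE), with an adjusted p-value of 0.00486 (limma). Ghr, the growth hormone receptor, had 0.18 and was not a DEG.

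The shares of DEGs in the next 4 lists, from 32.0% to 59.1%, stand beside the 37.6% of all genes tested, and nothing is read from them about the lists. Downstream of the receptor, 7 genes were higher and 2 lower at P60 among 23 receptor-family and adaptor genes, with a median of 0.09. The adaptor Grb2 had 0.26 and the ubiquitin ligase Nedd4 had 0.23 on the log2 scale, while Grb14, an adaptor that inhibits insulin receptor signaling, had -0.82 ± 0.10 (SE) with an adjusted p-value of 2.64e-05 (limma), and Gab1 had -0.25. In the PI3K, AKT and FOXO list, 4 were higher and 9 lower of 22, with a median of -0.09. The AKT phosphatase gene Phlpp2 and the catalytic subunit gene Pik3cb had 0.32 and 0.24, and the lipid phosphatase gene Inppl1 and the regulatory subunit gene Pik3r2 had -0.34 and -0.25. In the TSC and mTOR complex list, 6 were higher and 4 lower of 22, with a median of 0.03. Sesn3 and Tsc1, which restrain mTOR complex 1, had 0.39 and 0.32, and Ddit4 and Tbc1d7, which do the same through the TSC complex, had -0.74 and -0.62. In the list of mannose 6-phosphate sorting, for which Igf2r is a carrier, 2 were higher and 6 lower of 25, with a median of -0.06. The sorting adaptor gene Gga3 and the sortilin gene Sort1 had 0.33 and 0.18, and the lysosomal genes Lamp1 and Ctsl had -0.28 and -0.34. None of the genes of these lists was a DEG in a genotype comparison or in the interaction (0 genes, limma). Of all genes tested, 0.00571% were at P25, 0.00568% at P60 and over both ages, and 0% in the interaction. Per list at most 1 gene had an unadjusted p under 0.05 in KO against WT at either age (limma), as 1.36% of all genes did at P25 and 2.50% at P60. Nothing is read from these counts about the lists.

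**Figure D5:**
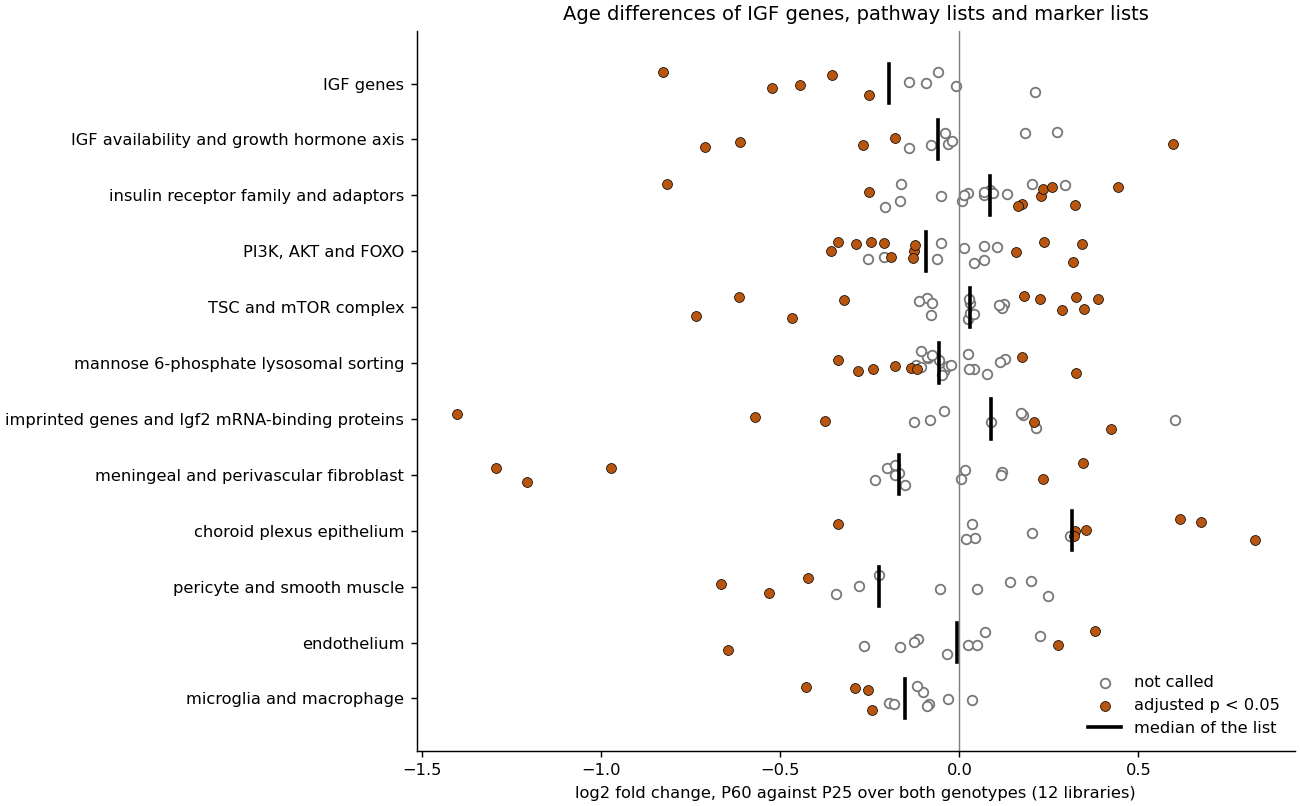
Log2 fold changes of P60 against P25 over both genotypes (horizontal axis) for the IGF genes, the pathway lists and 5 marker lists, 1 point per gene. Filled points have an adjusted p under 0.05 and bars are list medians. The IGF genes had a median of -0.20 and the choroid plexus markers one of 0.31.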

How the data were processed

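RNA-seq libraries of 12 forebrains were analysed, grouped by the age and genotype in their titles. Per the study's methods and the submitters' processing notes, the authors estimated transcript counts with Salmon 1.1.0, corrected for GC bias, imported them with tximport and analysed them in DESeq2, with read counts normalized to gene size. The notes name build GRCm38 and DESeq2 1.26.0 in R 3.6.2. The methods name other versions of both, and which made the deposited table is not known. The deposited values are signal on a count scale, not whole reads, so the depth behind each value is unknown and no counting interval can be given. Precision is set by the 3 libraries of a group. Whether counting used strand is not given in the sources used here.

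Tests were made on log2(value + 1), a scale that understates changes of low genes, with limma 3.58.1 (R 4.3.3), in which the prior variance followed the mean level. Genes whose mean over the fitted libraries was under 10 were left out. P-values were adjusted over all genes tested by the Benjamini-Hochberg method. Age comparisons within a genotype and genotype comparisons within an age used the 6 libraries concerned. Those over both used all 12 with the other factor as a term, as did the interaction. Comparisons share libraries and are not independent. The procedure was tested on simulated data. The IGF genes, gene lists and marker lists were chosen with earlier results of these data known, and lists were written from general knowledge and are described by counts and medians only. Beside the IGF genes and Shank3, the text names up to 2 DEGs per direction and pathway list in the age comparison over both genotypes, and the 3 genes most correlated with each IGF gene over all libraries and with group means subtracted. Of these, 1 is not reported here. Other genes named (Airn, Igf2os, Igf2bp2, Igf2bp3, Slc22a3, Ghr and the markers) were chosen after their values were seen. Of the symbols, 19252 of 19268 were found in GENCODE M21, which also gave positions, exon lengths and the transcripts in which shared 31-base words were counted. Alternatives changed the pseudocount, filter, scaling, samples in the fit, variance trend and replicate block, or left out 1 library, and leave-one-out correlations were an addition made with the values known. Figures were drawn with matplotlib 3.10.9.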

Additional observations from a re-analysis of the deposited data

How the results depend on the processing

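Over both genotypes the number of IGF genes called between the ages was 5, and between 4 and 6 under every alternative. Igf2, Igfbp2, Igfbp3 and Igfbp4 were called in all of them with a negative sign, while Igfbp7 was lost after scaling all libraries to 1 total, with 1 fit of all 4 groups and without the intensity trend. In KO mice the number was 4 throughout. In WT mice 3 were called, 4 with 1 fit of all 4 groups, 0 without the intensity trend and between 0 and 3 when 1 library was left out, with adjusted p-values without the trend of 0.0580, 0.101 and 0.0873 for Igf2, Igfbp2 and Igfbp4 (limma). There the number of all DEGs was 1521, 192 without the trend 3439 with 1 fit of all 4 groups, and between 122 (without P60-WT replicate 3) and 2403 (without P25-WT replicate 2) when 1 library was left out. In KO mice it was 3641, 1725 without the trend, and between 2093 (without P25-KO replicate 3) and 3230 when 1 library was left out. After scaling all libraries to 1 total, 681 of 1672 DEGs in WT and 1620 of 3728 in KO mice were lower at P60, and 877 of 1521 and 1992 of 3641 as deposited. No IGF gene was called between genotypes or in the interaction under any alternative (0 genes). Replicate numbers were not treated as pairs, since no comparison had correlations of same-numbered deviations all above 0.1. For KO against WT at P60 the values were 0.0596, 0.1664 and 0.1293, so this rule does not settle whether the numbers pair the libraries. With the replicate block the counts were 3 in WT mice, 4 in KO mice and 6 over both, where Igf1r was added with an adjusted p of 0.0135 (limma). After scaling all libraries to 1 total, 2 small values that were not called changed sign, to 0.0346 for Igfbp5 between the ages over both genotypes and to 0.0039 for Igf2 between genotypes at P25. Leaving out 1 library turned the sign of other values that were not called. Between the ages in WT mice the ranges were -0.1071 to 0.1081 for Igf2r and -8e-04 to 0.0847 for Igfbp5. In KO mice it was -0.0132 to 0.2053 for Igf1r. Over both genotypes it was -0.0329 to 0.0153 for Igfbp5. Between genotypes at P25 the ranges were -0.0809 to 0.0666 for Igf2, -0.0107 to 0.2775 for Igf1r, -0.0736 to 0.1416 for Igf2r, -0.0054 to 0.0673 for Igfbp5, -0.1902 to 0.0377 for Igfbp6 and -0.1493 to 0.0463 for Igfbp7. At P60 they were -0.0598 to 0.1863 for Igf2, -0.1773 to 0.0412 for Igf1r, -0.1164 to 0.0803 for Igfbp2 and -6e-04 to 0.0704 for Igfbp6. Over both ages they were -0.107 to 0.0489 for Igf1, -0.0319 to 0.0775 for Igf2, -0.0372 to 0.1044 for Igf1r, -0.0946 to 0.001 for Igf2r, -0.0374 to 0.0108 for Igfbp5, -0.0636 to 0.0377 for Igfbp6 and -0.0276 to 0.0888 for Igfbp7. In the interaction they were -0.0503 to 0.1958 for Igf2 and -0.0303 to 0.1899 for Igfbp2. The cause of these changes was not tested.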

Other observations

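The ratios between IGF genes were also taken in each library. The ratio of Igf1r to Igf2r normalized counts was 1.40 ± 0.07 in P25-WT, 1.504 ± 0.22 in P25-KO, 1.72 ± 0.22 in P60-WT and 1.79 ± 0.30 in P60-KO mice (SD, n = 3). The ages overlapped over both genotypes and in KO mice, but not in WT mice. The ratio of Igfbp5 to Igfbp2 was 3.65 ± 0.60 in P25-WT and 4.01 ± 0.41 in P25-KO mice, and 5.49 ± 0.59 in P60-WT and 5.40 ± 0.29 in P60-KO mice (SD, n = 3), and here the lowest P60 library, with 4.83, was above the highest P25 library, with 4.48. The ratio of Igf2 to Igfbp2 was 2.49 ± 0.22 in P25-WT, 2.67 ± 0.14 in P25-KO, 2.03 ± 0.07 in P60-WT and 2.16 ± 0.27 in P60-KO mice (SD, n = 3). The ages overlapped only across genotypes, with a highest P60-KO value of 2.397 and a lowest P25-WT value of 2.248, and not within a genotype. These ratios were not tested.

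With group means subtracted, so that age and genotype are removed, the IGF genes did not vary as 1 block over the 12 libraries. Igf2 and Igfbp2 had a Pearson correlation of 0.71, which was 0.40 without P60-WT replicate 1. Igf2r and Igfbp6 had -0.82, and -0.47 without P25-WT replicate 2, the library that stood farthest from its group over all genes. Igfbp4 and Igfbp6 had 0.62. Among 14637 other genes, those most alike to Igf2 over all libraries were Vps37c, Chst2 and Phyhipl (0.99, 0.99 and 0.98), and with group means subtracted Apobec1, Tra2b and Vps37c (0.96, 0.93 and 0.91). For Igf1 they included Ifi30 and Rbck1 (0.89 and 0.82), and with group means subtracted Nckap1l, Cenpu and Ifi30 (0.90, 0.89 and 0.89). For Igf1r they were Plekhg4, Tbc1d2 and Hspa1a, for Igf2r Magee1, Atrn and Dctn1, for Igfbp2 Dok4, Sgta and Gss, for Igfbp3 Chrm1, Plat and Rab40c, for Igfbp4 Mkrn3, Htr3a and Gja4, for Igfbp5 Efl1, Lmx1a and Bend4, for Igfbp6 Dirc2, Plekhb2 and Med11, and for Igfbp7 Rita1, Srarp and Gbp3, with correlations from 0.83 to 0.97 over all libraries. With group means subtracted they were Tns1, Jcad and Zfp319 for Igf1r, Magee1, Vwa8 and Tbk1 for Igf2r, Gng8, Nsfl1c and Mxi1 for Igfbp2, and Tlnrd1, Ctrl and Zfp52 for Igfbp3. For Igfbp4 they were Cdh10, Serpina3g and Snx13, for Igfbp5 Numbl, Sox10 and Crb2, for Igfbp6 Arpc5, Vwc2 and Gulp1, and for Igfbp7 Pdcd2, Acad8 and Cr1l, with correlations from 0.87 to 0.99. The values share libraries and, where group means are kept, the age difference, and with so many genes high correlations arise readily.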
